A study of Mus musculus with 4 samples.

Results

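Long intergenic noncoding RNAs (lincRNAs) are transcripts from loci of their own, between protein-coding genes. Of 3794 autosomal lincRNAs of at least 200 bp in the deposited tables, 116 were expressed in mouse regulatory T cells. They were chosen by their measured level: each had at least 1 TPM (fragments per unit of exon length, scaled to the same total in every library) in all 4 libraries. Gene types were those of GENCODE mouse release 21, and chromosomes X and Y were left out. Because level chose the 116, their levels are described here without a test.

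The study sequenced RNA from primary cells of mouse strain C57BL/6NJ, labelled as regulatory T cells, a CD4+ lineage that holds immune responses in check. Its 4 libraries form 1 group, numbered as biological replicates 1 to 4, with no treated or control arm. The labels link a protocol for CD4+ T cell differentiation, leave age and sex unrecorded and give a single donor identifier, and names inside the file headers include the terms activated and 24h. The assay is called total RNA-seq while the linked library protocol is named for polyA+ RNA, so whether RNAs without a polyA tail were captured cannot be told. Whether the libraries came from separate animals or cultures is not stated, so the p-values below measure only the spread between these libraries.

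LincRNAs act in different ways. Some, such as Malat1 and Neat1, stay in the nucleus, in or around bodies that hold splicing factors and other RNA-binding proteins. Others are host transcripts that carry small nucleolar RNAs (snoRNAs), which guide the modification of ribosomal RNA, or microRNAs (miRNAs), which silence messenger RNAs that pair with their seed. Many start back to back with a protein-coding gene and run away from it on the opposite strand. In T cells the best known are the hosts of miR-155, of miR-142 and of the cluster that runs from miR-17 to miR-92a, miRNAs that mouse regulatory T cells need for normal numbers or function.

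The miRNAs carried by some of the expressed hosts are shown because they are what these hosts are known for. Their sequences are from RefSeq (GRCm38.p6, the assembly also called mm10), 5′ to 3′, with the seed (bases 2 to 8) in capitals. The arm given is the usual guide, and for Mir142 both arms. The libraries counted fragments of the host exons, so the mature miRNAs themselves were not measured.
mmu-miR-155-5p: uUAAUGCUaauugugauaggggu
mmu-miR-142a-5p: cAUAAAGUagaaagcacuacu
mmu-miR-142a-3p: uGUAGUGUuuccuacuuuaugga
mmu-miR-17-5p: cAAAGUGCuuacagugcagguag
mmu-miR-20a-5p: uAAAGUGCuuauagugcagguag
mmu-miR-18a-5p: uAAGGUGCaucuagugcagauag
mmu-miR-19a-3p: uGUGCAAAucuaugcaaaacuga
mmu-miR-19b-3p: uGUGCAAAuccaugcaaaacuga
mmu-miR-92a-3p: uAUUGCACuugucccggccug
mmu-miR-191-5p: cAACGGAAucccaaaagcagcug
mmu-miR-425-5p: aAUGACACgaucacucccguuga
In all, 22 mature miRNAs lay inside 6 of the 116 lincRNAs. Those of Snhg20 and 2900076A07Rik are not shown. Within the cluster of Mir17hg, miR-17-5p and miR-20a-5p share the seed AAAGUGC, miR-19a-3p and miR-19b-3p share GUGCAAA, and miR-18a-5p has a seed of its own.

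Depth was 38590127, 44357436, 48312918 and 93035969 fragments in replicates 1 to 4, and a count of 0 allows up to 0.0777, 0.0676, 0.0621 and 0.0322 CPM (scaled to the library total alone). Replicate 1 stood apart: protein-coding genes held 88.2% of its TPM, against 95.6 to 96.6% in the other libraries, and features under 200 bp held 6.24%, against 1.18 to 2.02%. The 5 T cell markers had means of 186 to 1436 TPM. Of the 4 regulatory T cell markers, Il2ra had a mean of 702 TPM, Ctla4 245 TPM and Foxp3 109 TPM, while Ikzf2 was low at 4.32 TPM. Of 17 markers of other cell types, 7 had 0 fragments and the highest mean was 1.11 TPM, for Cd8a; summed, the 17 had 2.14 to 4.51 TPM per library. The X-linked lincRNA Xist, which the autosomal rule leaves out, had 100.4 and 88.7 TPM in replicates 1 and 2 but 0.716 and 0.603 TPM in replicates 3 and 4, although the labels give the libraries a single donor. In bulk libraries, fewer cells of a type and less RNA per cell cannot be told apart.

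Of the other 3678 autosomal lincRNAs, 107 reached 1 TPM in 1 to 3 libraries and 3571 stayed under it in all 4, of which 3064 had 0 fragments throughout. Expression at this level was therefore uncommon among annotated lincRNAs. The same threshold was met by 10095 protein-coding genes, 9775 of them outside chromosomes X and Y and of at least 200 bp. Their share of all coding genes is not given here. The 116 lay on 19 chromosomes and had exon lengths of 269 to 20771 bp. Their mean levels ranged upward from 1.20 TPM with a median of 4.23 TPM, and the median over members was 3.79, 4.42, 4.45 and 4.26 TPM in replicates 1 to 4. A mean of at least 100 TPM was reached by 5 of them, 25 lay between 10 and 100 TPM, 50 between 3 and 10 TPM and 36 below 3 TPM. Just inside the threshold, the lowest library of Gm26888 had 1.00 TPM and those of Gm15675 and Gm26510 1.08 TPM each. Just outside it, the lowest library of Gm38150 had 0.99957 TPM, that of Gm28942 0.976 TPM and that of BC043934 0.955 TPM. A single low library can keep a gene out: Gm28942 had 4.08, 3.51, 0.976 and 5.86 TPM in replicates 1 to 4.

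**Figure D1:**
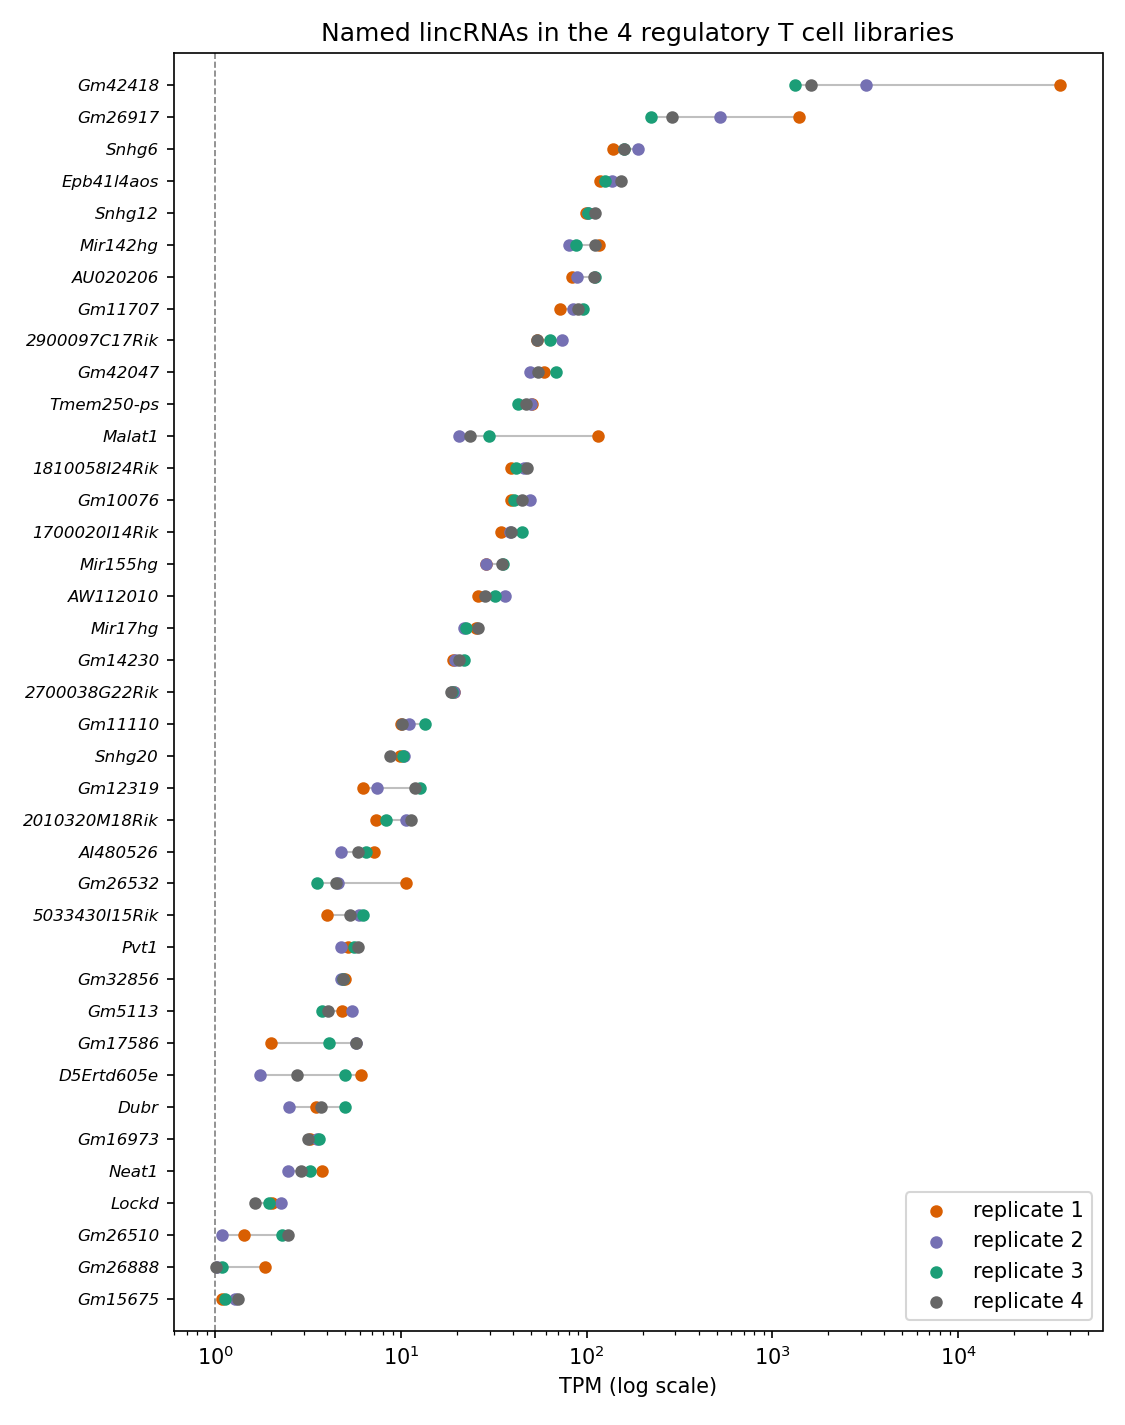
Level of each of the 39 named lincRNAs in TPM (horizontal axis, log scale), with a point for each of the 4 libraries and a line from the lowest to the highest. The dashed line marks 1 TPM. Most points of a gene lie close together, while Gm42418, Gm26917 and Malat1 reach 35490.5, 1389 and 115 TPM in replicate 1, far to the right of their other libraries.

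Outside the ribosomal RNA locus on chromosome 17, described further on, snoRNA hosts were the most abundant lincRNAs. Snhg6 (ENSMUSG00000098234.7, chromosome 1, 9941959 to 9944118, minus strand, 3 exon blocks), the host of Snord87, had 139, 189, 159 and 159 TPM in replicates 1 to 4. Epb41l4aos (chromosome 18, 33794892 to 33795986, plus strand), which carries the snoRNA Gm23639, had 118, 136, 125 and 153 TPM. Snhg12 (chromosome 4, 132308678 to 132311024, plus strand), which carries Snora16a, Snora44, Snora61 and Snord99, had 99.0, 102, 101 and 111 TPM. All 3 thus held the same order of magnitude in every library, and the lowest library of Snhg6 lay above every library of Snhg12. 2700038G22Rik, the host of Snord93, was lower at 19.2, 19.3, 18.8 and 18.5 TPM. Its coefficient of variation (CV, the SD over the mean) of 1.95% was the lowest of the 116 by TPM, but it was 5.44% by TMM-scaled CPM (counts per library size, corrected for dominant genes), and counting error alone gives about 4.68% at its 370 to 814 fragments. Snhg20, which carries the Cajal body RNA Gm26083 and Mir6516, had 9.81, 10.4, 10.2 and 8.74 TPM.

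Most expressed snoRNA hosts of the list have another gene type than lincRNA. Of 24 hosts listed, 19 were measured and 15 of these reached 1 TPM in all 4 libraries. Just 4 of the 15 are among the 116, and 11 have another gene type. Gas5, a host of many snoRNAs typed as a processed transcript, had 181 ± 10.7 TPM (SD, n = 4) and Snhg1 147 ± 11.8 TPM, so Snhg6 at 161 ± 20.6 TPM lay between them and its range over the libraries overlapped both of theirs. The 12 protein-coding genes listed for snoRNA particles and for nonsense-mediated decay, the pathway known to degrade many spliced snoRNA hosts, were all expressed. Their means ran from 27.5 TPM for the decay factor Smg6 to 703 TPM for Nhp2, a protein of H/ACA snoRNA particles.

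Transcripts of snoRNA hosts are known for starting with a run of pyrimidines, the 5′ terminal oligopyrimidine sequence that also marks ribosomal protein messenger RNAs. The annotated starts of 3 hosts are therefore shown from RefSeq (GRCm38.p6), from 50 bases before the start to 39 after it. Capitals mark a pyrimidine run of at least 5 bases that begins with C within 3 bases of that start. Snhg12 is chr4:132308628-132308717, plus strand, 2700038G22Rik is chr5:23850547-23850636, plus strand, and Snhg20 is chr11:117076733-117076822, plus strand.
Snhg12: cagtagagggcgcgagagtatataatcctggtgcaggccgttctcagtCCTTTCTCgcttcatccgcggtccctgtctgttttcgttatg
2700038G22Rik: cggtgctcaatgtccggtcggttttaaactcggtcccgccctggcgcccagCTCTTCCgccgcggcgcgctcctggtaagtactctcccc
Snhg20: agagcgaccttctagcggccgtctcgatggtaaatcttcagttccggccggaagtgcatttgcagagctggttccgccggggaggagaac
Snhg12 has the run CCTTTCTC and 2700038G22Rik has CTCTTCC, whereas Snhg20 has none by this definition. A run of this kind was found in 9 of 42 members whose RefSeq start lay within 100 bp of the start used here (21.4%), in 12.2% of the windows of expressed protein-coding genes and in 11.5% of all 32851 windows. The Snhg20 sequence holds CCGGAAG, the core of an ETS factor motif.

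Mir142hg, Mir155hg and Mir17hg, miRNA hosts known from lymphocytes, were all well above the threshold. Mir142hg (ENSMUSG00000084796.1, chromosome 11, 87755577 to 87757270, plus strand, 269 bp of exon), the precursor of the blood cell miRNA miR-142, had 117, 79.8, 87.1 and 110 TPM in replicates 1 to 4. Mir155hg (chromosome 16, 84703167 to 84715245, plus strand), also called Bic, which is induced when lymphocytes are activated, had 28.7, 28.5, 35.5 and 35.0 TPM. Mir17hg (chromosome 14, 115042879 to 115046727, plus strand), the precursor of the growth-promoting cluster, had 25.3, 21.8, 22.4 and 26.1 TPM. Mir142hg stood above the others in every library and the lowest library of Mir155hg lay just above the highest of Mir17hg. A pair of further hosts, named after their values were seen, were low: 4833445I07Rik, which carries Mir191 and Mir425, had 4.33, 4.17, 2.52 and 3.76 TPM, and 2900076A07Rik, which carries Mir1839, had 1.45, 2.15, 1.68 and 2.29 TPM.

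Of 14 miRNA hosts listed, 9 were measured, 5 of them reached 1 TPM in every library and 4 had 0 fragments. Dleu2, the host of the miR-15 and miR-16 genes, and Mir22hg, both of another gene type, had 2.05 ± 0.330 and 2.03 ± 0.586 TPM (SD, n = 4). The neuronal hosts Mir124a-1hg and Mir9-3hg had 0 fragments. The 6 genes of miRNA processing and silencing that were listed were all expressed, from Tarbp2, a Dicer partner, at 36.0 ± 2.36 TPM to Xpo5, which exports precursors from the nucleus, at 195 ± 7.61 TPM. The processing enzymes Drosha and Dicer1 had 88.2 ± 6.33 and 46.8 ± 4.03 TPM.

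Of 20 RNAs listed for nuclear architecture and genome stability, 19 were measured, 7 reached 1 TPM in all 4 libraries and 3 were members. Norad (listed as 2900097C17Rik, chromosome 2, 156391831 to 156392979, minus strand), which binds Pumilio proteins and guards chromosome number, had 54.1, 73.8, 63.5 and 53.7 TPM in replicates 1 to 4. Its level is uncertain, since 51.6% of an annotated Norad transcript is 99.2% identical to Gm7292, in a match of 2537 bp. The exons counted here cover only 1149 bp, a part of that transcript. How much of this part is matched is not known. Malat1 (ENSMUSG00000092341.2, chromosome 19, 5795690 to 5802672, minus strand, 1 exon block), the abundant RNA of nuclear speckles, had 115, 20.4, 29.9 and 23.6 TPM. Neat1 (chromosome 19, 5824708 to 5845478, minus strand, 20771 bp), the scaffold of paraspeckles, had 3.74, 2.45, 3.24 and 2.89 TPM. Malat1 was thus high in replicate 1 alone, while for Norad and Neat1 the highest library was less than 2-fold above the lowest. Outside replicate 1, every library of Norad lay above every library of Malat1. The 9 protein-coding genes listed for paraspeckles and Malat1 processing were all expressed. Their means ran from 91.8 TPM for Pspc1 to 872 TPM for the splicing factor Srsf2. The TPM of Neat1 was low beside these, but it is taken over all 20771 bp, and Neat1 had 4213 fragments in total. Meg3, Mirg, Miat, Hotair and Hottip, all typed as lincRNAs, had 0 fragments in all 4 libraries, and H19 had 9 in total.

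The members linked to growth and to the p53 pathway spanned the range of levels. Of 16 such RNAs listed, 9 were measured and 4 were members, one of them Gm26917, described further on. 1700020I14Rik (Oip5os1 in RefSeq, chromosome 2, 119594297 to 119607502, plus strand), the RNA called Cyrano that triggers decay of miR-7 in mouse brain, had 34.4, 38.6, 44.9 and 39.1 TPM. Pvt1 (chromosome 15, 62037986 to 62378096, plus strand), a neighbour of the growth regulator Myc, had 5.15, 4.75, 5.60 and 5.83 TPM. Its start lay 52595 bp from that of Myc, which had 497 TPM on average. Lockd, which lies downstream of the cell cycle inhibitor gene Cdkn1b, had 2.01, 2.26, 1.93 and 1.64 TPM, against 19.9 TPM on average for Cdkn1b. In these pairs the protein-coding neighbour was the higher by far. Trp53cor1, the p53-induced lincRNA, had 0.146 ± 0.127 TPM (SD, n = 4) and did not meet the threshold.

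Of 24 RNAs listed for T cells and other immune cells, 20 were measured and 8 had 0 fragments. Among the 20 were 11 autosomal lincRNAs, of which 4 were members, including Pvt1. AW112010 (chromosome 19, 11047617 to 11050566, minus strand), an interferon-inducible RNA that was found to be translated in mouse macrophages, had 25.99, 36.5, 32.1 and 28.3 TPM in replicates 1 to 4. Dubr, known from mouse muscle differentiation, had 3.46, 2.48, 5.01 and 3.71 TPM. Gm10076 had 39.0, 49.6, 40.6 and 44.6 TPM, but RefSeq lists it as a pseudogene and it is 99.5% identical to Rpl41, a ribosomal protein gene, over 99.7% of its transcript, so its level is uncertain. Among those outside the threshold, Gm14005 had 0.890, 0.847, 1.29 and 0.585 TPM and Mirt1 0.955, 0.495, 1.15 and 0.687 TPM. Flicr, an antisense RNA beside Foxp3 on chromosome X that is known from mouse regulatory T cells, had 1.19 ± 0.300 TPM (SD, n = 4). Ifngas1, which neighbours the interferon gamma gene, had 0 fragments.

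The rest of the 15 most abundant members have little described function. AU020206 had 83.6, 88.5, 110 and 109 TPM in replicates 1 to 4, Gm11707 71.7, 84.7, 95.1 and 89.9 TPM, and Gm42047 58.7, 49.7, 67.9 and 54.4 TPM. Their CVs were 14.2, 11.7 and 13.4%. The level of Gm42047 is uncertain, since 64.2% of an annotated transcript of this gene is 98.4% identical to Gm48362. Tmem250-ps, named as a pseudogene, had 50.5, 49.98, 42.7 and 47.2 TPM. 1810058I24Rik, known from mouse macrophages to encode a small mitochondrial protein, had 39.1, 45.8, 41.7 and 47.4 TPM. RefSeq types both as protein-coding.

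Some members started close to a protein-coding gene on the opposite strand. Such a coding start lay within 1 kb for 22 of the 116 (18.97%), against 6.91% of the other 3678 autosomal lincRNAs. These pairs are called divergent here, but whether the genes run apart or overlap was not checked for each pair. 1700086O06Rik, for example, started 316 bp from Dele1 and overlaps its exons. The coding partner reached 1 TPM in all 4 libraries in 21 of the 22 cases, against 164 of 254 such pairs among the others; the exception, Myl6b beside A430046D13Rik, had 1.39, 0.938, 0.926 and 2.44 TPM in replicates 1 to 4. It had the higher mean in 21 of the 22, with a median over pairs of 3.66 TPM for the lincRNAs and 35.1 TPM for the partners, while the other members had a median of 4.60 TPM. Position was not used to choose the members, and these shares are given as a description.

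Gm14230 (ENSMUSG00000087179.8, chromosome 2, 156833049 to 156839892, minus strand) started 115 bp from Tgif2, a homeobox repressor of TGF-beta signalling. Gm14230 had 19.1, 19.5, 21.9 and 20.4 TPM in replicates 1 to 4, and Tgif2 32.8, 30.7, 31.9 and 30.9 TPM. This was the most abundant divergent lincRNA and among the steadiest members, with a CV of 6.07%. 2010320M18Rik started 102 bp from Pik3r2, a regulatory subunit of phosphoinositide 3-kinase, and had 7.30, 10.6, 8.26 and 11.4 TPM beside 31.7, 28.1, 27.7 and 29.0 TPM of Pik3r2. The windows between these starts are shown because both transcripts of each pair begin in them. They are RefSeq promoter windows of the coding gene (GRCm38.p6), on its strand, and capitals mark the bases from one start to the other. Tgif2 is chr2:156839757-156840056, plus strand, and Pik3r2 is chr8:70776663-70776962, minus strand.
Tgif2 and Gm14230: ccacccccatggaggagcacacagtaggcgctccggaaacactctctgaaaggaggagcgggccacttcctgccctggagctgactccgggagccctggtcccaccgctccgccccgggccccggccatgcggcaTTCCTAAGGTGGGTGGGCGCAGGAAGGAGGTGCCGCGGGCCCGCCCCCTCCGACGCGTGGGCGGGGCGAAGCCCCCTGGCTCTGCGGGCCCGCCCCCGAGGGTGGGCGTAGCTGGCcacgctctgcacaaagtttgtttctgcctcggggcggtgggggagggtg
Pik3r2 and 2010320M18Rik: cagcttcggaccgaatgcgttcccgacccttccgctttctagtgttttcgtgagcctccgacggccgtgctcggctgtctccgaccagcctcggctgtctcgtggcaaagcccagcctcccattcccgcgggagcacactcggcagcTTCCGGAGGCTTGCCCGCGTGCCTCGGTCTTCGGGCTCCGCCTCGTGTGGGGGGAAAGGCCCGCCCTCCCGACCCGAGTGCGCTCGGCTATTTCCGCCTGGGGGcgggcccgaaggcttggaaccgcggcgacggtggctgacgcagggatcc
The capitals span 116 bases in the Tgif2 window and 104 bases in the Pik3r2 window, with both starts included. They end at the RefSeq start of the coding gene. For Pik3r2 this is not quite the start used for the distance of 102 bp.

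The other divergent pairs of highest level had partners of varied function. Gm11110 started 557 bp from Tnfsf9, the gene of the costimulatory 4-1BB ligand, and had 9.96, 11.002, 13.4 and 10.1 TPM beside 25.3, 27.6, 22.8 and 27.4 TPM of Tnfsf9. Gm12319 started 709 bp from Eno3, an enolase gene, and had 6.25, 7.38, 12.6 and 11.9 TPM beside 298, 333, 384 and 327 TPM of Eno3. Gm17586, 168 bp from the small Maf factor gene Mafg, had 2.00, 5.72, 4.08 and 5.71 TPM beside 52.9, 47.8, 51.5 and 53.1 TPM. In these 3 pairs every library of the coding gene lay above every library of the lincRNA. AI480526 beside the histone methyltransferase gene Setd1b, 5033430I15Rik beside Atxn1 and Gm5113 beside the zinc finger gene Zfp146 had means of 6.05, 5.36 and 4.50 TPM, and their partners 29.9, 8.95 and 71.3 TPM.

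Expressed lincRNAs also lay nearer to coding genes at large. The distance to the nearest coding start had a median of 21563.5 bp for the 116 and 57448 bp for the others. The nearest coding gene was expressed for 82 of the 116 (70.7%), against 48.0% of the others. Within 5 kb of a coding start these shares were 90.6% of 32 members and 54.0% of 489 others. Members were also longer, with a median exon length of 1817 bp against 996 bp, and more often a single exon block, in 23 of 116 (19.8%) against 6.82%.

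**Figure D2:**
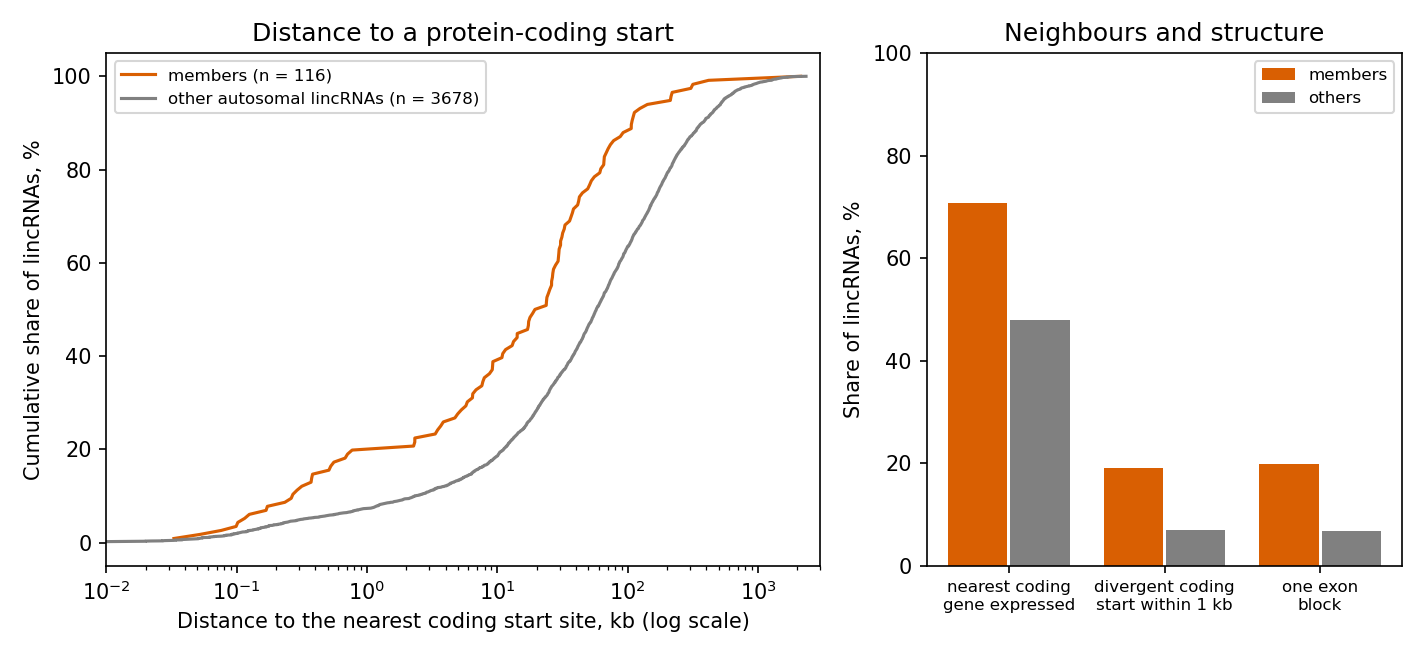
Left, cumulative share of lincRNAs (%) by distance to the nearest protein-coding start (kb, log scale), for the 116 members and the 3678 other autosomal lincRNAs. Right, bars give the share of each set (%) whose nearest coding gene was expressed (70.7% and 48.0%). Further bars give those with an opposite-strand coding start within 1 kb, labelled divergent (18.97% and 6.91%), and with a single exon block (19.8% and 6.82%). The curve of the members lies to the left of that of the others.

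Some members lie where reads of a neighbour could reach them. A coding gene on the same strand ended within 5 kb upstream of 17 members, was expressed in 16 of these cases and was the higher of the pair in 14. Among them were Neat1, downstream of Frmd8 (90.4 TPM on average), Lockd, downstream of Cdkn1b, and Gm12847, 29 bp downstream of Atpaf1, the last named after its values were seen. Exons of a gene on the opposite strand overlapped 22 members, of which 2 had a partner of at least 10 TPM: Gm16973 opposite Mphosph8 (76.5 TPM) and 1700086O06Rik opposite Dele1 (77.1 TPM), both picked out after their values were seen. Counting used strand, per the file headers. The part of read-through or of overlap in these levels was not tested.

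The promoter windows of members were compared with those of other genes. RefSeq gave a window for 62 members, and in 42 its start lay within 100 bp of the start used here. Both strands were searched for short motifs in these windows of 300 bases. The ETS core CCGGAAG was found in 11 of the 42 (26.2%), in 19.8% of windows of expressed coding genes and in 8.86% of all windows. The GC box GGGCGG was found in 20 (47.6%), against 64.8% of expressed coding windows and 35.7% of all. The TATA box TATAAA was found in 4 (9.52%), against 6.30% and 13.6%, and CCAAT in 13 (31.0%), against 38.3% and 37.4%. A match describes these letters alone, and no test was made.

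The last question is which lincRNAs differed between the libraries. Variation was tested with edgeR over all 12396 genes that passed its abundance filter: a gene was called when its quasi-likelihood dispersion was above that of similarly abundant genes, at 0.05 after Benjamini-Hochberg adjustment. The fit treated all libraries as 1 group, although Xist was high in replicates 1 and 2 alone. What this split adds to the spread was not tested. The filter kept 113 of the 116 members, leaving out Gm38293, Gm12847 and Gm15835. Of the 113, 3 were called (2.65%), against 0.468% of all genes tested. The genes tested include those of chromosomes X and Y, while the members are autosomal. The share over autosomal genes alone is not given. Before adjustment, 13 members (11.5%) had a p under 0.05, against 5.33% of all genes. DESeq2 marked 3 members as dispersion outliers, against 0.557% of all genes. Without replicate 1 edgeR called 2, against 0.293% of all genes.

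The 3 called members were Gm42418, Gm26917 and Malat1, each high in replicate 1. Gm42418 (ENSMUSG00000098178.1, chromosome 17, 39846958 to 39848788, plus strand, 1 exon block) is Rn18s-rs5 in RefSeq, a pseudogene related to the RNA of the small ribosomal subunit. Its level was 35490.5 TPM in replicate 1, and 3197, 1324 and 1606 TPM in replicates 2, 3 and 4 (edgeR adjusted p = 1.335e-24). Gm26917 lies just upstream of it (chromosome 17, 39843013 to 39846341, plus strand). Its level was 1389 TPM in replicate 1, and 523, 221 and 287 TPM in replicates 2, 3 and 4 (edgeR adjusted p = 2.13e-16). Malat1, whose levels are given above, had an edgeR adjusted p of 1.60e-15. For Gm42418 and Gm26917 replicate 2 came next, while for Malat1 it was lowest. Whether fragments of ribosomal RNA itself were counted in Gm42418 and Gm26917 was not tested. The search for near-identical copies covered annotated transcripts only. Their levels as lincRNAs are therefore uncertain.

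On the scale of TMM-scaled CPM, replicate 1 was 18.8 times the mean of the other 3 libraries for Gm42418, 5.08 times for Malat1 and 4.37 times for Gm26917. Without replicate 1 the mean of Gm42418 was 2042 TPM, against 10404 TPM with it. The mean of Gm26917 was 344 TPM without it and 605 TPM with it, and that of Malat1 was 24.6 TPM without it and 47.3 TPM with it. Without replicate 1, Gm42418 (edgeR adjusted p = 9.47e-13) and Gm26917 (edgeR adjusted p = 1.001e-10) were still called, and Malat1 was not (edgeR adjusted p = 0.281). The members whose profile over the libraries lay nearest to that of Gm42418, by Euclidean distance of log2 TPM from each gene's mean, were Gm26917, Malat1 and Gm26532. Gm26532 had 10.7, 4.58, 3.51 and 4.47 TPM and was not called (edgeR adjusted p = 0.852). The shares of coding genes and of short features in replicate 1, given with the depths, moved with these RNAs, and their part in the result was not tested.

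**Figure D3:**
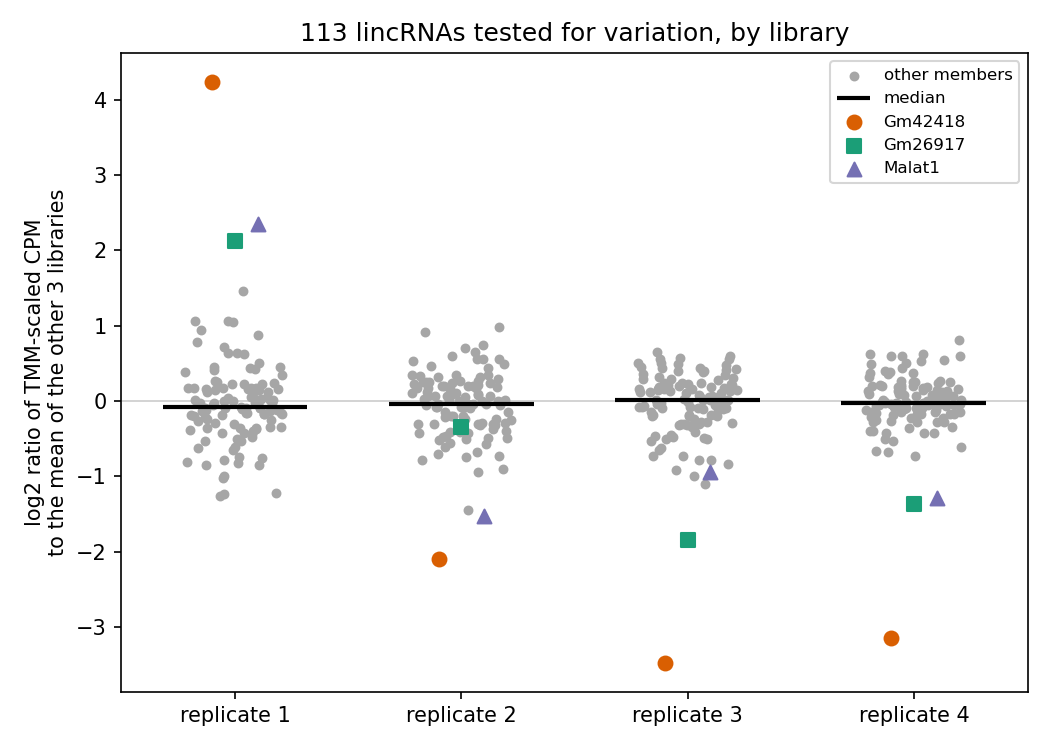
Log2 ratio of TMM-scaled CPM in each library to the mean of the other 3 libraries (vertical axis), with a point for each of the 113 tested lincRNAs and a black bar for their median. Gm42418, Gm26917 and Malat1 lie above all other members in replicate 1 at 4.23, 2.13 and 2.34, while the medians are between -0.08 and 0.01.

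Gm42418 and Gm26917 made up much of the lincRNA share of each library. The 116 together held 2.30% of fragments in replicate 1 (95% exact binomial interval 2.29 to 2.30), 0.323% in replicate 2 (0.321 to 0.325), 0.193% in replicate 3 (0.191 to 0.194) and 0.213% in replicate 4 (0.212 to 0.214), intervals that cover counting error only. Without Gm42418 and Gm26917, a choice made after their values were seen, the remaining members held 0.116, 0.0955, 0.101 and 0.0975% of fragments. Of TPM, all members held 3.85, 0.534, 0.319 and 0.356%, and the members without these RNAs 0.160, 0.162, 0.165 and 0.167%. Over the libraries the share of TPM was 1.26 ± 1.72% (SD, n = 4) with them and 0.163 ± 0.0032% without them, and without replicate 1 it was 0.403% with them.

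Away from these RNAs no library stood out for most members. By TPM, replicates 1 to 4 were the highest library for 26, 29, 38 and 23 members, against 942, 2856, 3889 and 2088 of 9775 autosomal protein-coding genes at the same threshold. Replicate 1 was the lowest for 52 members and for 5465 of the coding genes. The TPM scale itself was lower in replicate 1: the median log2 ratio of TPM in replicate 1 to the other libraries was -0.19 over members and -0.12 over coding genes. With TMM-scaled CPM the medians in replicate 1 were -0.08 over members and 0.00 over coding genes, and replicates 1 to 4 were highest for 29, 27, 32 and 25 members. On that scale replicate 1 was more than 2-fold above the mean of the other libraries for 7 of the 113 tested members (6.19%), among them the 3 that were called, against 36 of 9771 coding genes (0.368%). Replicates 2 to 4 were so for no member and for 8, 1 and 0 coding genes. Replicates 1 to 4 were more than 2-fold below for 4, 3, 4 and 3 members (3.54, 2.65, 3.54 and 2.65%). They were so for 5, 24, 26 and 18 coding genes (0.0512, 0.246, 0.266 and 0.184%), which carry more fragments than members. Besides those called, D5Ertd605e had 6.04, 1.74, 5.01 and 2.75 TPM, high in replicates 1 and 3, and was not called (edgeR adjusted p = 0.830).

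Spread between libraries was larger for lincRNAs than for coding genes. The median CV of TPM was 20.5% over the 116 and 7.91% over the 9775 coding genes, and 15.1% and 6.31% without replicate 1. Between 10 and 100 TPM it was 12.4% for 25 members and 7.53% for coding genes, and between 3 and 10 TPM 21.8% for 50 members and 11.7%. LincRNAs carry fewer fragments: the median member had 89, 106.5, 122 and 205 fragments in replicates 1 to 4, and 9 members had under 20 in a library. At 100 to 1000 fragments per library the median CV was 15.6% for 56 members and 12.02% for coding genes, and without replicate 1 12.3% and 10.4%. Under 100 fragments it was 29.1% for 46 members and 24.4% for coding genes, and without replicate 1 20.2% and 20.02%. At 1000 fragments or more it was 13.1% for 14 members and 7.04% for coding genes, and without replicate 1 11.8% and 5.36%. The gap within each range of fragments was therefore smaller than the gap over all, by the least at 1000 fragments or more, and it was not tested. The ranges match members and coding genes only roughly. From the lowest range to the highest, median fragments were 59.6, 261 and 2973 for members and 69.5, 459 and 3835 for coding genes.

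**Figure D4:**
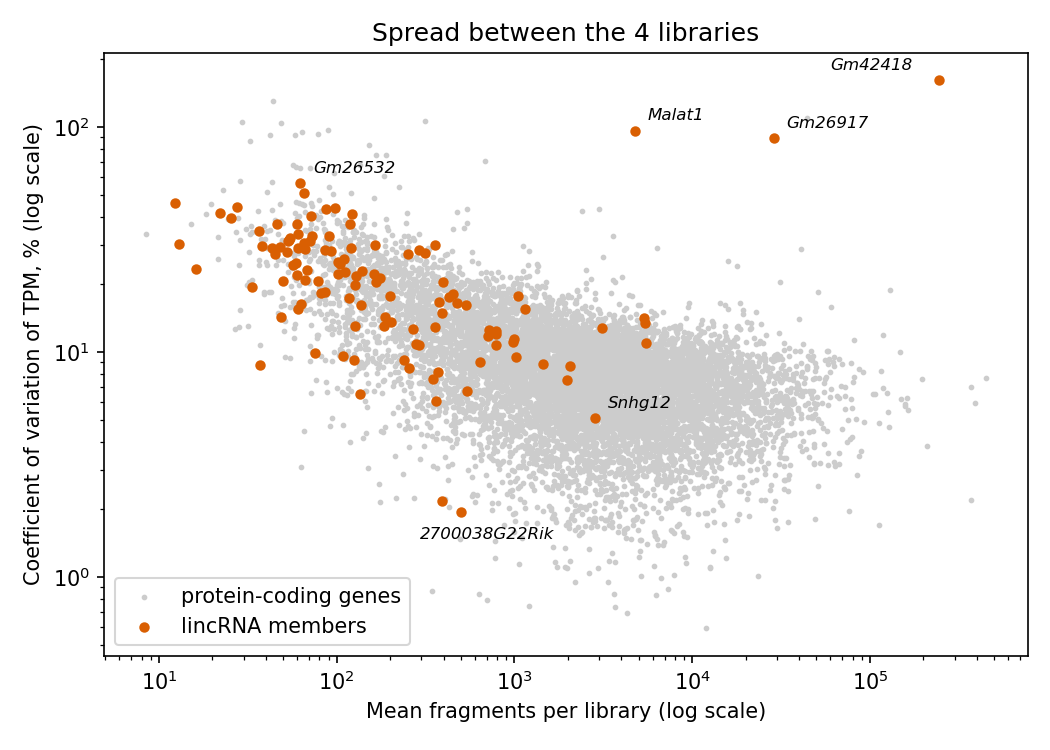
Coefficient of variation of TPM over the 4 libraries (%, log scale) against mean fragments per library (log scale), for the 116 lincRNAs and for autosomal protein-coding genes of at least 1 TPM in all libraries. Most lincRNAs lie within the cloud of coding genes, with Gm42418, Gm26917 and Malat1 above it at 161, 89.0 and 96.2% and 2700038G22Rik at its lower edge by TPM at 1.95%.

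The members of lowest CV by TPM were 2700038G22Rik, Gm32856, Snhg12, Gm14230 and Gm16973. Gm32856 had 4.99, 4.73, 4.84 and 4.85 TPM in replicates 1 to 4, a CV of 2.19%, and Gm16973 had 3.21, 3.51, 3.59 and 3.15 TPM, a CV of 6.53%. By TMM-scaled CPM, Gm14230 was the lowest of the 113 tested at 3.69%, and Gm32856 was at 6.21%, no longer among the 5 lowest. Apart from Snhg12, these CVs on one or both scales lay below what counting error alone gives, so their order carries little weight. Snhg12 and 2700038G22Rik are the snoRNA hosts among them. Neat1 came nearest to a call among those not called (edgeR adjusted p = 0.525), followed by Gm42047 (edgeR adjusted p = 0.542).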

How the data were processed

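RNA was sequenced in 4 libraries that form 1 group. The deposited tables hold raw counts of fragments per gene: the authors counted read pairs with both ends mapped over exons, with featureCounts 1.4.6-p4, strand setting 2 and GENCODE mouse release 13 on mm10, per the file headers and the labels. Reads that map to several places or overlap several genes were not asked for, which lowers genes with near-identical copies. No aligner is named in the sources used here. The other column used, the exon union length of each gene, is in the same deposited tables, per the file headers.

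TPM was computed from counts and lengths. GENCODE mouse release 21 gave the gene types, by ID without version (50376 of 50600 IDs matched). The members, the gene lists and the tests were chosen with earlier results of these data known.

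Variation was tested in R 4.3.3 with edgeR 4.0.16, using filterByExpr, TMM scaling, a quasi-likelihood fit with an intercept alone and a robust prior, a one-sided F test of each dispersion against the prior, and Benjamini-Hochberg adjustment. The step was tested on simulated data. Alternatives were DESeq2 1.42.0, other size factors, filters, TPM thresholds and denominators, and leaving out each replicate. No pair of libraries was a duplicate: over the 113 members that were not called, chi-square over its degrees of freedom was 6.59 to 9.43. Near-identical copies were searched for with BLAST 2.17.0, and the shares given are of an annotated transcript, not of the counted exons.

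Named lincRNAs are those in the lists, the 15 of highest mean TPM, those called, 3 on each side of the threshold, the 5 of lowest and 5 of highest CV, the 8 most abundant with a divergent coding start within 1 kb, and the 3 nearest in profile to the most abundant. Genes of the lists that are not members are named as examples, chosen after their values were seen.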

Additional observations from a re-analysis of the deposited data

Results flagged for a closer look

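Of 44 values tested for a library far from the others, 6 stood out, all in replicate 1. Chance gives about 1 in 20, but that rate does not apply here: many of these lincRNAs were named for their spread between libraries, for their call, for a profile near that of Gm42418 or for lying at the threshold, so the number is a description. Gm42418, the pseudogene related to ribosomal RNA, had 35490.5 TPM in replicate 1 against 1324 to 3197 TPM in the other libraries, a gap of 0.945 of its whole range. Malat1, the nuclear speckle RNA, had 115 TPM against 20.4 to 29.9 TPM. Gm26532, a gene of a single exon block on chromosome 8 with no RefSeq entry, had 10.7 TPM against 3.51 to 4.58 TPM. Gm26888, which lies just inside the threshold, had 1.84 TPM against 1.00 to 1.08 TPM. The share of fragments held by the 116 lincRNAs was 2.30% against 0.193 to 0.323%, and their share of TPM 3.85% against 0.319 to 0.534%. Both shares include Gm42418, so they are not separate signals from it. What set replicate 1 apart was not tested.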

How the results depend on the processing

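No paired analysis was possible because the study has 1 group. Under every alternative run the number of lincRNAs that vary stayed at 3, except without replicate 1, where it was 2. The number of expressed lincRNAs was 116, and 152 at 0.5 TPM or by a mean of 1 TPM, 83 at 2 TPM, 80 at 1 CPM, 117 and 119 with other TPM denominators, and 119 to 126 with a replicate left out. Without Gm42418 the mean share of TPM was 0.224% and that of fragments 0.164%, against 1.26% and 0.756% with it. The divergent count was 16 within 500 bp and 22 within 2 kb. By TMM-scaled CPM, a scale tried for single CVs after seeing the data, the CV of 2700038G22Rik was 5.44% against 1.95% by TPM. Of 234 recomputed levels of named lincRNAs, 6 moved by at least 1 SD, all under another TPM denominator. Depth limits the 9 members with under 20 fragments in a library.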

Other observations

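Some of the 116 are not noncoding in every annotation. RefSeq matched 80 of them and typed 69 as lncRNA, 8 as protein-coding and 3 as pseudogenes, and 36 had no entry. Besides Tmem250-ps, 1810058I24Rik and Gm32856, those typed as protein-coding were Gm6712 with a mean of 11.6 TPM, Gm39469 with 8.82 TPM, D930016D06Rik (Thoc2l in RefSeq) with 4.39 TPM, Gm20939 with 3.10 TPM and Gm37494 with 2.61 TPM. They were named after their values were seen. In 33 members a stretch of at least 100 bp was 95% or more identical to another annotated gene. Some best matches were small RNAs inside the member itself, such as Snora16a in Snhg12 and Mir1839 in 2900076A07Rik, which are not copies elsewhere. In 7 members a match covered over 50% of an annotated transcript: Norad, Gm42047, Gm10076, Gm6712, Gm31793, 1300002E11Rik and Gm20186. That transcript can differ in length from the counted exons. For 1300002E11Rik the match was 236 bp, against 4143 bp of counted exons.

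Gm6712 had 5.43, 15.3, 13.3 and 12.5 TPM in replicates 1 to 4, low in replicate 1. Gm8066, also named after its values were seen, had 23.9, 9.47, 12.2 and 15.3 TPM, high in replicate 1. Neither was called as variable.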
